A study of Mus musculus with 4 samples.

Results

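The genes described here encode RNA decay factors, the proteins that decide how long a messenger RNA persists in the cytoplasm. They are the AU-rich element binders Zfp36, Zfp36l1 and Zfp36l2, the endonuclease Regnase-1 (Zc3h12a), the Roquin paralogs Rc3h1 and Rc3h2, the stabilising binder HuR (Elavl1), and the core decay enzymes or scaffolds Cnot1, Xrn1 and Dcp2. They were selected by symbol, and all 10 were found among the 55401 gene identifiers of each count file. All 10 also passed the filter on low counts, which left 11657 genes to be tested.

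RNA was sequenced from B220+ B cells that had been sorted from the spleen of C57BL/6J mice aged 7 to 9 weeks, with a stated purity above 98%. The 2 NSD1B KO libraries came from mice of the genotype Mb1-Cre+ NSD1fl/fl, in which exons 6 to 8 of Nsd1 lie between loxP sites, and the 2 NSD1B WT libraries from littermates of the genotype Mb1-Cre+ NSD1+/+. Both groups therefore carried Cre, which is expressed from the Mb1 (Cd79a) gene and acts in the B lineage. No stimulation or immunization is named for these cells, and no label tells whether a genotype's libraries came from different mice or from pools, or of which sex, so that p-values measure only the spread between these libraries.

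Counts on genes totalled 6769118 to 7566834 per library. Nsd1, which encodes a methyltransferase of lysine 36 on histone H3, had 497 and 480 counts in NSD1B WT and 284 and 280 in NSD1B KO, a log2 fold change of -0.74 (SE 0.11), where the count also takes in exons outside the deleted ones. The comparison was broad: 78.2% of all genes tested passed the threshold, set at a fold change over 1.2 with an adjusted p under 0.05, with 37.1% higher and 41.1% lower in NSD1B KO. In addition, 1016 genes had no count in either NSD1B KO library and at least 50 over the NSD1B WT libraries, and 681 genes had the opposite pattern. The defining genes of B cells were counted in every library, and their summed level was 13181 to 13415 CPM (counts for each 1000000 counts on genes, after TMM scaling) in NSD1B WT and 11555 to 12563 in NSD1B KO, although 6 of 9 fell, among them Pax5 by 3.29 on the log2 scale, and 1 rose. B cell subset markers summed to 1019 and 1052 CPM in NSD1B WT and 595 and 570 in NSD1B KO, with 6 of 9 tested lower and 2 higher. Their median log2 fold change was -0.98. Fcer2a (CD23), among those lower, had 134 and 172 counts against none, and Cd5, among those higher, had none against 120 and 103. Early response genes, which rise with handling of cells, summed to 257 and 231 CPM against 210 and 206. Of these, 5 of 8 tested were lower and 2 higher, with a median log2 fold change of -1.13. Y-linked genes were counted in all 4 libraries, and Xist had 47 and 62 counts in NSD1B WT and 1 and 2 in NSD1B KO. Genes of other cells moved with genotype. Summed myeloid markers went from 4620 and 4712 CPM in NSD1B WT to 6332 and 5948 in NSD1B KO, with 8 of 9 tested higher, and erythroid and platelet markers from 194 and 202 CPM to 2168 and 1921, with 6 of 6 tested higher. T and NK markers summed to 88.8 to 88.9 CPM in NSD1B WT and 129 to 132 in NSD1B KO, with 3 of 5 tested higher and 2 lower, and plasma cell markers to 231 and 216 CPM against 170 and 174, with 1 of 3 tested higher and 2 lower. The genes Cd4, Cd8a, Ncr1, Siglech, Sdc1 and Ppbp were at 0 in all 4 libraries. Mitochondrial genes took 7.14% and 7.90% of the counts in NSD1B WT and 8.98% and 9.27% in NSD1B KO, and the 10 genes with the most counts took 14.6% and 15.1% against 16.7% and 16.9%. The part of these differences in the results on the decay genes was not tested, and in bulk RNA fewer cells of a type cannot be told apart from less RNA per cell.

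Messenger RNA decay usually starts with removal of the poly(A) tail by the CCR4-NOT complex, followed by decapping and digestion from the 5′ end, or by digestion from the 3′ end in the exosome. Proteins that bind the 3′ UTR choose the transcripts. ZFP36 proteins bind AU-rich elements through paired zinc fingers and recruit CCR4-NOT, Roquin binds short stem-loops and does the same, and Regnase-1 binds similar stem-loops and cuts the RNA itself. HuR binds AU-rich or U-rich stretches and in most known cases protects the transcript. In B cells the ZFP36 family is known to restrain cell cycle entry and to help maintain the marginal zone pool, and Regnase-1 and Roquin-1 limit the activation of lymphocytes.

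Of the 10 decay genes, 3 rose in NSD1B KO (Cnot1, Elavl1 and Zfp36l2), 4 fell (Zc3h12a, Rc3h1, Xrn1 and Zfp36l1) and 3 did not pass the threshold (Zfp36, Rc3h2 and Dcp2). The share that passed, 7 of 10, was close to the 78.2% of all genes tested. At stricter limits, a log2 fold change over 0.5 with an adjusted p under 1e-05, 7 of 10 passed as well, beside 57.2% of all genes tested. The libraries of the genotypes did not overlap in CPM for 9 of the 10, all but Rc3h2, beside 88.1% of all genes tested. The median log2 fold change of the 10 was 0.04 and that of all genes tested -0.10, and the median size of the change was 1.06 for the 10 and 1.16 for all genes tested. The decay genes as a group thus moved about as often and as far as the rest of the transcriptome, and in both directions.

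**Figure D1:**
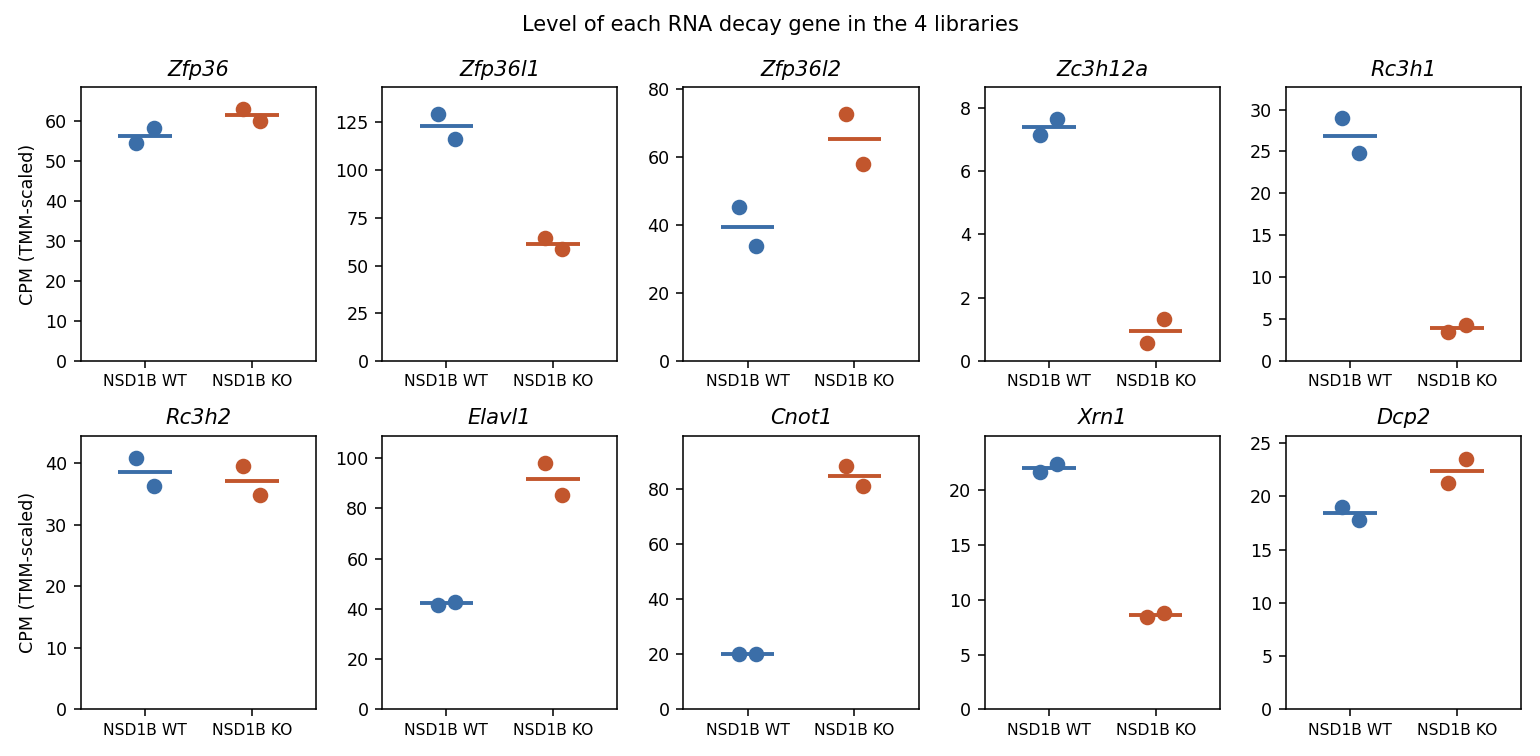
Level of each decay gene in CPM (linear axes from 0, scaled by TMM) in the 2 NSD1B WT and 2 NSD1B KO libraries. Each point is a library and each line the mean of a genotype. Only in the panel of Rc3h2 do the points of the genotypes overlap.

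**Figure D2:**
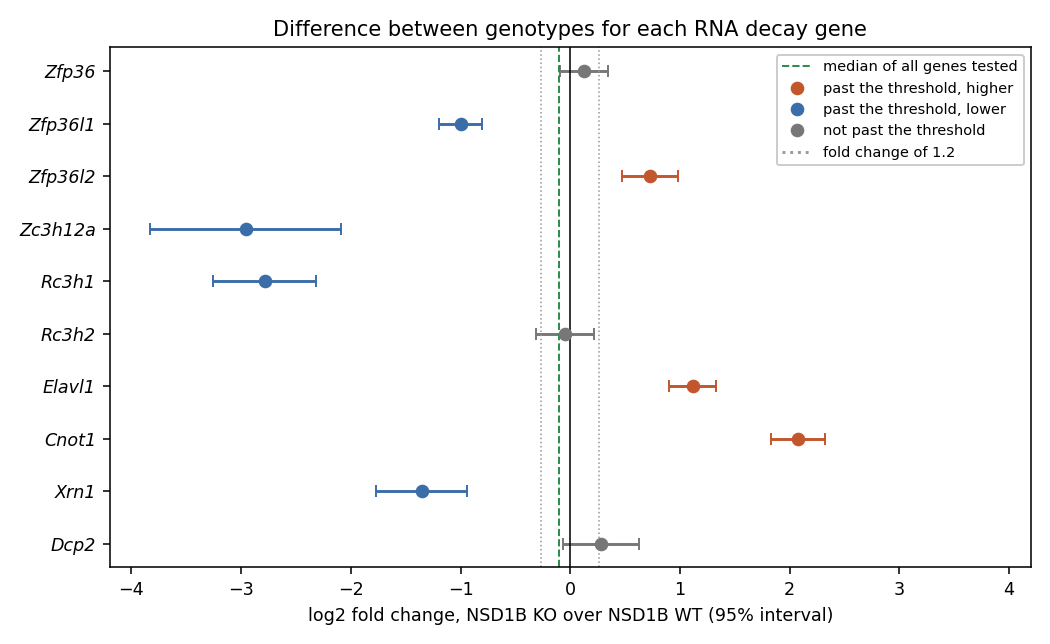
Log2 fold change of each decay gene, NSD1B KO over NSD1B WT, with its 95% interval from edgeR's quasi-likelihood fit on 2 against 2 libraries. The values run from -2.96 for Zc3h12a to 2.08 for Cnot1, and the intervals of Zfp36, Rc3h2 and Dcp2 include 0.

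The ZFP36 family shifted from one dominated by Zfp36l1 to one of 3 paralogs at similar levels. Zfp36l1 fell by a factor of 2.0, Zfp36l2 rose by a factor of 1.66, and Zfp36 did not pass the threshold. Each of their own 3′ UTRs held the core element TATTTAT 3 times, once within the longer TTATTTATT, the form that ZFP36 proteins bind most tightly. Among 20801 mouse 3′ UTRs, 26.1% held TATTTAT at all, 3.75% held it 3 or more times and 7.12% held TTATTTATT. The site inside TTATTTATT is shown for each paralog on its own strand, since these are the transcripts through which the family could bind its own members, with TATTTAT in capitals and 8 bases on either side.
Zfp36, chr7:28376954-28376976, minus strand: gacgacttTATTTATtgtattaa
Zfp36l1, chr12:80108170-80108192, minus strand: tgttggatTATTTATtttagaaa
Zfp36l2, chr17:84184917-84184939, minus strand: atttaactTATTTATtatcttgt
These sequences come from the GENCODE M21 transcripts on GRCm38 (mm10), 1 transcript for each gene, and a match describes letters and does not show binding.

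Zfp36l1 (ENSMUSG00000021127.7) encodes the paralog best known for holding B cells in quiescence and lies at chr12:80107754-80113013 on the minus strand. It had 924 and 852 counts in NSD1B WT and 462 and 395 in NSD1B KO, which is 129 and 117 CPM against 64.2 and 58.7. Both NSD1B KO libraries lay well below both NSD1B WT libraries. The means were 123 ± 9.02 and 61.5 ± 3.88 CPM (SD, n = 2), the log2 fold change was -1.0 (SE 0.10, 95% interval -1.2 to -0.80) and the adjusted p was 7.62e-13 in the quasi-likelihood test of edgeR, adjusted by the Benjamini-Hochberg method as is every adjusted p here. In the annotation a long noncoding RNA on the other strand, Gm26669, shares 1672 nt (55.9%) of the exons of Zfp36l1, and since the strand setting of the counting is not given, its reads cannot be told apart from those of Zfp36l1. The processed pseudogene Zfp36l1-ps had 3 counts in a single library and none in the others.

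Zfp36l2 (ENSMUSG00000045817.8), the paralog that acts with Zfp36l1 during lymphocyte development, lies at chr17:84183931-84187947 on the minus strand. It had 324 and 247 counts in NSD1B WT and 523 and 391 in NSD1B KO, or 45.3 and 33.8 CPM against 72.7 and 58.1. The lowest NSD1B KO library stood above the highest NSD1B WT library, although the libraries of each genotype were spread more widely than for most of the other decay genes. The means were 39.6 ± 8.17 and 65.4 ± 10.3 CPM (SD, n = 2), with a log2 fold change of 0.73 (SE 0.13, 95% interval 0.48 to 0.98) and an adjusted p of 9.83e-07. With 1 library left out the log2 fold change ranged from 0.55 to 0.98, and it was 1.14 when a trend of the fold change with exon length and GC content was removed.

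Zfp36 (ENSMUSG00000044786.6) encodes tristetraprolin, the founding member, which destabilises Tnf mRNA in myeloid cells, and lies at chr7:28376784-28380253 on the minus strand. It had 388 and 425 counts in NSD1B WT and 452 and 402 in NSD1B KO, which gave 54.3 and 58.1 CPM against 62.8 and 59.8. The groups did not overlap but were separated by less than their own spread. The log2 fold change was 0.12 (SE 0.11, 95% interval -0.09 to 0.34, adjusted p 0.288). With the same trend removed, it was 0.52 with an adjusted p of 2.11e-05, so that the call for Zfp36 depended on this choice. An antisense transcript, Gm44710, shares 125 nt with the exons of Zfp36 and had 160 and 136 counts in NSD1B WT and 274 and 208 in NSD1B KO. Summed myeloid markers were also higher in NSD1B KO, and their part in the Zfp36 value was not tested.

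To compare paralogs, CPM was divided by exon length in kb, the length of all annotated exons of a gene merged. In Zfp36 this was 3470 nt, where the transcript searched had 2790 nt, and in Zfp36l1 (2990 nt) and Zfp36l2 (3530 nt) the 2 lengths were equal. In NSD1B WT, Zfp36l1 made up 60.3% and 59.7% of the family's CPM per kb in the 2 libraries, Zfp36 21.8% and 25.7%, and Zfp36l2 17.9% and 14.7%. In NSD1B KO, Zfp36l1 made up 35.7% and 36.8%, Zfp36 30.1% and 32.3%, and Zfp36l2 34.2% and 30.9%. The 3 shares thus lay close together in NSD1B KO and far apart in NSD1B WT. The ratio of Zfp36l1 to Zfp36l2 was 3.37 and 4.07 in NSD1B WT and 1.04 and 1.19 in NSD1B KO. The sum of the family went from 71.7 and 65.3 CPM per kb in NSD1B WT to 60.2 and 53.3 in NSD1B KO, so the rise of Zfp36l2 was smaller, on this scale, than the fall of Zfp36l1. These shares are descriptions and carry no test.

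**Figure D3:**
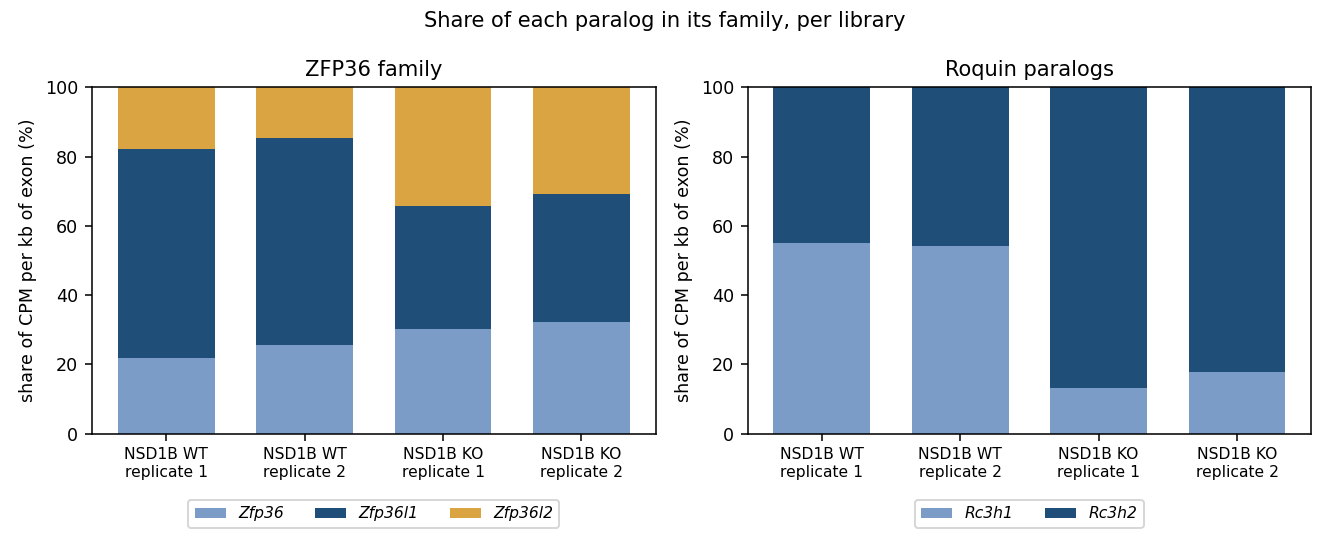
Share of each paralog in the summed CPM per kb of exon of its family, in percent, for each of the 4 libraries. Exon length is that of all annotated exons of a gene merged. In the ZFP36 family the share of Zfp36l1 is 59.7% to 60.3% in NSD1B WT and 35.7% to 36.8% in NSD1B KO, and among the Roquin paralogs the share of Rc3h1 is 54.2% to 55.2% and 13.2% to 17.7%.

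Among the factors that recognise stem-loops, Regnase-1 and Roquin-1 fell together and Roquin-2 did not. Zc3h12a fell by a factor of 7.78 and Rc3h1 by a factor of 6.89, the furthest falls of the 10 decay genes, while Rc3h2 had nearly equal levels in both genotypes. Such stem-loops were searched in the 3′ UTRs as 6 paired bases on either side of a loop of 3 bases, TAT or TGT, a form that 3.80% of the 20801 mouse 3′ UTRs held. The search found a match in the 3′ UTRs of all 3 genes of this group. The same run of 15 bases was found in Rc3h1 and Rc3h2 and in no other 3′ UTR searched, and it is shown with the loop in capitals, beside the match in Zc3h12a and, for comparison, that in Tnf, a transcript known as a target of both Roquin and Regnase-1.
Rc3h1, chr1:160971660-160971674, plus strand: aacttcTGTgaagtt
Rc3h2, chr2:37373809-37373823, minus strand: aacttcTGTgaagtt
Zc3h12a, chr4:125118663-125118677, minus strand: tttaaaTATtttaaa
Tnf, chr17:35199585-35199599, minus strand: gttttcTGTgaaaac
Rc3h1 held 4 matches in all, of which 2 overlapped in a run made only of A and T, and no structure was measured. The Roquin 3′ UTRs also held TATTTAT, 2 times in Rc3h1 and 3 times in Rc3h2, and Zc3h12a held none.

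Zc3h12a (ENSMUSG00000042677.7) encodes Regnase-1, an RNase that cuts transcripts such as Il6 and is itself cleaved after antigen receptor signalling, and lies at chr4:125118423-125127840 on the minus strand. It had 51 and 56 counts in NSD1B WT and 4 and 9 in NSD1B KO, or 7.14 and 7.66 CPM against 0.556 and 1.34. It was the decay gene with the fewest counts, and both NSD1B KO libraries had under 10 counts. The means were 7.40 ± 0.37 and 0.947 ± 0.553 CPM (SD, n = 2), and the log2 fold change was -2.96 (SE 0.43, 95% interval -3.83 to -2.09, adjusted p 2.75e-08). Its interval was the widest of the 10, and among genes within 2-fold of its level 51.6% had a change at least as large. Without 1 library the log2 fold change ran from -3.69 to -2.46.

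Rc3h1 (ENSMUSG00000040423.11) encodes Roquin-1, whose sanroque mutation in mice leads to follicular helper T cell expansion and autoimmunity, and lies at chr1:160906418-160974978 on the plus strand. It had 207 and 181 counts in NSD1B WT and 25 and 29 in NSD1B KO, or 29.0 and 24.8 CPM against 3.47 and 4.31. The NSD1B KO libraries lay far below both NSD1B WT libraries and close to each other. Mean levels were 26.9 ± 2.98 and 3.89 ± 0.591 CPM (SD, n = 2), with a log2 fold change of -2.78 (SE 0.23) and an adjusted p of 4.71e-15. The value stayed between -2.94 and -2.64 under every alternative that was run, and 25.8% of genes within 2-fold of its level had a change at least as large.

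Rc3h2 (ENSMUSG00000075376.10) encodes Roquin-2, which shares the stem-loop binding domain of Roquin-1 and overlaps with it in function, and lies at chr2:37370069-37422903 on the minus strand. It had 292 and 265 counts in NSD1B WT and 285 and 234 in NSD1B KO, which is 40.9 and 36.3 CPM against 39.6 and 34.8. The groups overlapped. The log2 fold change was -0.05 (SE 0.13, adjusted p 0.735), and the 95% interval of -0.32 to 0.22 leaves room for a small difference in either direction. Rc3h2 made up 44.8% and 45.8% of the Roquin CPM per kb in NSD1B WT and 86.8% and 82.3% in NSD1B KO. Its merged exons measured 19624 nt and those of Rc3h1 11308 nt, while the transcripts searched had 8799 and 11006 nt. In CPM alone Rc3h2 lay above Rc3h1 in NSD1B WT as well, so which paralog led there depends on the length used. The shift of their ratio between genotypes does not. The summed Roquin level was 4.64 and 4.04 CPM per kb in NSD1B WT and 2.33 and 2.15 in NSD1B KO, and the ratio of Rc3h2 to Rc3h1 went from 0.813 and 0.844 to 6.57 and 4.65.

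Because Zc3h12a and Rc3h1 moved together, the 250 bases before their start sites are shown from RefSeq (GRCm38.p6), with the GC box letters GGGCGG or CCGCCC in capitals. Promoter windows of 300 bases, which include 50 bases after the start, were used for 7 of the 10 genes, and the counts that follow refer to them. Zfp36l2 and Cnot1 had no entry, and that of Dcp2 is not reported here.
Rc3h1, chr1:160906161-160906410, plus strand: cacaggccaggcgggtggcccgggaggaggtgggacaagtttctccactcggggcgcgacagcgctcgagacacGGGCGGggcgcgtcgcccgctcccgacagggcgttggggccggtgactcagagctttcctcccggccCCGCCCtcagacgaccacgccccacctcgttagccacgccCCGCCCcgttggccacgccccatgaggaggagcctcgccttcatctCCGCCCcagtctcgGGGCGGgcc
Zc3h12a, chr4:125127882-125128131, minus strand: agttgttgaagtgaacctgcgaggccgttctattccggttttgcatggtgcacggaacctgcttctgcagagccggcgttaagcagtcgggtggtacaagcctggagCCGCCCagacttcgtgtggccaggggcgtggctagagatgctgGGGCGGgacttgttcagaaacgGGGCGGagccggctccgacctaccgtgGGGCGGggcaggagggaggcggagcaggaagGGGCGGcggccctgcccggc
Over the whole window Rc3h1 held 6 GC boxes and Zc3h12a 5, counted on both strands, and 2.71% of 32851 mouse promoter windows held 5 or more. Zfp36 and Xrn1 held 1 each, and Rc3h2, Elavl1 and Zfp36l1 none, beside 35.7% of all windows with at least 1. The number of 5 was picked after these counts were seen, no binding was measured, and nothing follows from the letters about a factor. CpG pairs numbered 36 in Rc3h1, 27 in Zc3h12a, 24 in Rc3h2, 21 in Zfp36, 39 in Elavl1, 20 in Xrn1 and 15 in Zfp36l1, all above the median of 7 over all windows, and the TATAAA box was found only in Zfp36l1 among the 7 and in 8.32% of all windows.

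HuR, the factor that opposes decay, rose. Elavl1 (ENSMUSG00000040028.10) lies at chr8:4285382-4325413 on the minus strand and had 298 and 314 counts in NSD1B WT and 705 and 574 in NSD1B KO, or 41.7 and 43.0 CPM against 98.0 and 85.3. Both NSD1B KO libraries lay far above the NSD1B WT libraries, which nearly coincided. Means were 42.3 ± 0.884 and 91.6 ± 8.95 CPM (SD, n = 2), with a log2 fold change of 1.12 (SE 0.11, 95% interval 0.90 to 1.33, adjusted p 4.63e-13). The ratio of Elavl1 to Zfp36l1 RNA per kb, a binder that protects over one that destabilises, was 0.0931 and 0.106 in NSD1B WT and 0.440 and 0.419 in NSD1B KO. Only Zfp36l1 fell among the ZFP36 paralogs. The family sum went from 71.7 and 65.3 CPM per kb to 60.2 and 53.3, so the ratio of Elavl1 to the whole family moved less. Elavl1 held the most copies of TATTTAT among the 10, with 8 in a 3′ UTR of 4218 nt (1.90 per kb, beside 3.88 per kb in Zfp36), each within TTATTTATT and all in a run whose windows span chr8:4285745-4285813, and only 15 (0.0721%) of the 20801 mouse 3′ UTRs held TTATTTATT 8 or more times. One window from this run, in which the elements overlap, is shown with 1 element in capitals.
Elavl1, chr8:4285787-4285809, minus strand: aaattattTATTTATttatttat
The exons of Elavl1 share 204 nt with Ccl25 on the other strand, which had 68 and 94 counts in NSD1B WT and none in NSD1B KO.

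The core machinery moved in opposite directions: the CCR4-NOT scaffold rose, the 5′ exonuclease fell and the decapping enzyme did not pass the threshold. Cnot1 (ENSMUSG00000036550.16) encodes the scaffold on which the deadenylases assemble and to which ZFP36 and Roquin proteins dock, and lies at chr8:95719451-95807464 on the minus strand. It had 144 and 146 counts in NSD1B WT and 636 and 544 in NSD1B KO, or 20.2 and 19.97 CPM against 88.4 and 80.9. The NSD1B WT libraries were almost equal and both NSD1B KO libraries stood far above them. The means were 20.1 ± 0.127 and 84.6 ± 5.32 CPM (SD, n = 2), and the log2 fold change was 2.08 (SE 0.12, 95% interval 1.83 to 2.32, adjusted p 2.05e-20). Of the 10, this change was the least common at its level, since 11.9% of 2922 genes within 2-fold of the mean CPM of Cnot1 changed at least as much. The shared stretch with the antisense gene 4930513N10Rik is 132 nt, and that gene had 8 and 17 counts in NSD1B WT and none in NSD1B KO.

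Xrn1 (ENSMUSG00000032410.13) encodes the cytoplasmic 5′ exonuclease that digests decapped RNA and lies at chr9:95954760-96057803 on the plus strand. It had 155 and 164 counts in NSD1B WT and 61 and 59 in NSD1B KO, or 21.7 and 22.4 CPM against 8.48 and 8.77. Replicates were within 1 CPM of each other in both genotypes. The log2 fold change was -1.35 (SE 0.21, 95% interval -1.77 to -0.94, adjusted p 7.09e-08), and means were 22.1 ± 0.525 and 8.62 ± 0.207 CPM (SD, n = 2). At its level 48.7% of genes changed at least as much. Its antisense neighbour Gm16794, with which it shares 184 nt, had 70 and 67 counts in NSD1B WT and 51 and 64 in NSD1B KO.

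Dcp2 (ENSMUSG00000024472.9), the catalytic subunit of the decapping complex, had 136 and 130 counts in NSD1B WT and 153 and 158 in NSD1B KO. In CPM these were 19.0 and 17.8 against 21.3 and 23.5, and the groups did not overlap. The log2 fold change of 0.28 (SE 0.17, 95% interval -0.07 to 0.63, adjusted p 0.133) did not pass the threshold under any alternative that was run. Neither Cnot1 nor Xrn1 held TATTTAT or the stem-loop form in the 3′ UTR of the transcript searched, which had 949 nt in Cnot1 and 218 nt in Xrn1, and Dcp2 held TATTTAT 2 times.

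Ordered by CPM per kb of exon, the decay genes of NSD1B WT were led by Zfp36l1 at 41.1, followed by Zfp36 at 16.2, Zfp36l2 at 11.2 and Elavl1 at 4.08. Zc3h12a (2.57) and Rc3h1 (2.38) came next and could not be told apart by their ranges, nor could Dcp2 (2.12) and Rc3h2 (1.96), nor Xrn1 (1.19) and Cnot1 (1.17) at the end of the order. In NSD1B KO the ranges of Zfp36l1 (20.6), Zfp36l2 (18.5) and Zfp36 (17.7) overlapped with their neighbours at the head, followed by Elavl1 (8.84), Cnot1 (4.93), Dcp2 (2.57), Rc3h2 (1.90), Xrn1 (0.464), Rc3h1 (0.344) and Zc3h12a (0.329), the last pair overlapping. On this scale Cnot1 thus moved from the end of the order to the fifth place, and Zc3h12a and Rc3h1 from the fifth and the sixth to the end. The places rest on merged exons, 18585 nt in Xrn1 and 17169 nt in Cnot1, where the transcripts searched had 5499 and 8364 nt. In Zc3h12a these lengths were 2882 and 2755 nt, so the lower places would change with transcript length.

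**Figure D4:**
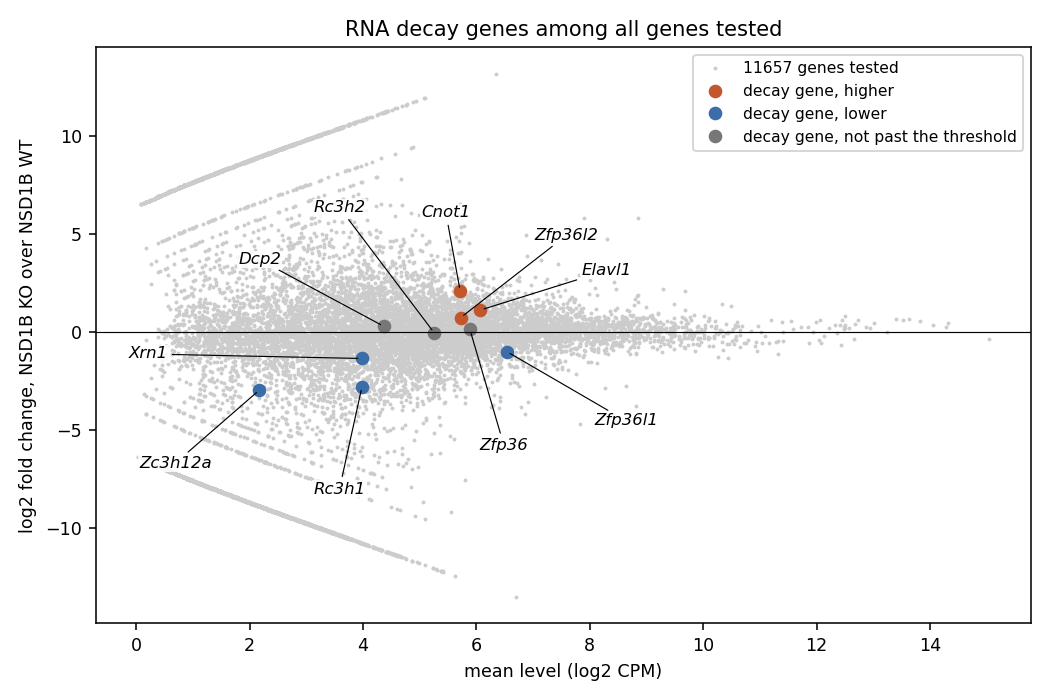
Log2 fold change, NSD1B KO over NSD1B WT, against mean level (log2 CPM) for the 11657 genes tested (grey) and the decay genes (coloured). The decay genes lie inside the cloud of all genes, and the outer bands are genes with no or few counts in a genotype, whose fitted fold change depends on the prior count.

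The rest of the decay pathway was examined through lists of its known components. In the 6 lists of machinery and RNA binders, 38 of 88 tested genes rose, 35 fell and 15 did not pass; their median log2 fold change was 0.12, so that 83.0% passed beside the 78.2% of all genes tested. Both directions occurred within every list.

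Of the other deadenylation genes, 5 of 17 rose, 8 fell and 4 did not pass, and the median of the list was 0.01 on the log2 scale. Within CCR4-NOT, the subunits Cnot9 and Cnot10 rose with the scaffold: Cnot9 had 5 and 1 counts in NSD1B WT and 254 and 195 in NSD1B KO (log2 fold change 6.22), and Cnot10 had 54 and 62 against 506 and 430 (3.06). With 1 library left out the value of Cnot9 ran from 5.51 to 7.73. Other subunits did not all share that direction. Among those that are not deadenylases, Cnot2 fell by 0.73, and Cnot3 and Cnot11 had log2 fold changes of 0.02 and 0.01 and did not pass. Among the deadenylase subunits, Cnot7 fell by 1.13 and Cnot6l by 0.62, and Cnot8 rose by 0.64. Deadenylases outside CCR4-NOT fell further. Pan2, the catalytic subunit of PAN2-PAN3, had 244 and 264 counts in NSD1B WT and 3 and 3 in NSD1B KO (log2 fold change -6.29), and Parn had 93 and 132 counts in NSD1B WT and none in NSD1B KO, at least 72.2-fold lower when 3 counts over the group are taken as the limit of detection. Btg1, an adaptor of CCR4-NOT that keeps lymphocytes quiescent, rose by 0.38 on the log2 scale.

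In decapping and 5′ decay, 7 of 17 genes rose, 6 fell and 4 did not pass, and the median of the list was 0.26 on the log2 scale. The cofactors of Dcp2 diverged: Dcp1b had no count in NSD1B WT and 86 and 82 in NSD1B KO, at least 58.1-fold higher, Dcp1a rose by 1.89 on the log2 scale, and the scaffold Edc4 fell by 1.59. Xrn2, the nuclear counterpart of Xrn1, rose from 295 and 272 counts to 774 and 662, a log2 fold change of 1.39, opposite in sign to the -1.35 of Xrn1. The scavenger enzyme Dcps fell by 1.0 and Lsm7, of the ring that binds shortened tails, by 0.76, while Lsm1 had a log2 fold change of 0.25 and missed the fold threshold. Lsm7 was at -0.43 with the trend in exon length and GC content removed, and Lsm1 passed under 6 of 16 alternatives, among them without NSD1B WT replicate 1 (0.27), NSD1B WT replicate 2 (0.29) or NSD1B KO replicate 2 (0.32).

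In the exosome and 3′ decay list, 9 of 15 tested genes rose, 4 fell and 2 did not pass, and the median of the list was 0.42 on the log2 scale. The nuclear exonuclease Exosc10 rose by 2.89 and the ring subunit Exosc4 by 2.64, although Exosc4 shares 385 nt of exon with Oplah, which was higher too (17 and 20 counts against 116 and 97). The ring subunit Exosc5 fell by 2.34. Skiv2l, the helicase that feeds RNA to the cytoplasmic exosome, had 105 and 107 counts in NSD1B WT and none in NSD1B KO, at least 68.1-fold lower, and its partner Wdr61 rose by 0.88.

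In nonsense-mediated decay, 6 of 15 genes rose, 7 fell and 2 did not pass, and the median of the list was -0.06 on the log2 scale. Of the effectors that act after Upf1, the endonuclease Smg6 had 167 and 135 counts in NSD1B WT and none in NSD1B KO, at least 97.0-fold lower, and Smg5 fell by 3.90. Smg8, a regulator of the kinase SMG1, had no count in NSD1B WT and 248 and 196 in NSD1B KO, at least 154-fold higher. Of the exon junction proteins, Magoh rose by 0.85 and Rbm8a fell by 0.59.

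The other binders of 3′ ends had 6 of 14 tested genes higher, 5 lower and 3 not past, and the median of the list was 0.24 on the log2 scale. The readers of N6-methyladenosine moved apart, Ythdf3 by 2.66 and Ythdf2 by -1.88, and the poly(A) binding proteins Pabpc4 and Pabpc1 fell by 2.11 and 0.71. All 10 tested microRNA effectors passed, 5 in each direction, and the median of the list was -0.07 on the log2 scale. Xpo5, which exports microRNA precursors, rose by 4.85, Ago1 by 3.90 and Ago2 by 2.99, whereas Drosha fell by 1.05, Tnrc6b by 0.57, and Tarbp2, a partner of Dicer, had 120 and 102 counts in NSD1B WT and none in NSD1B KO, at least 71.3-fold lower.

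**Figure D5:**
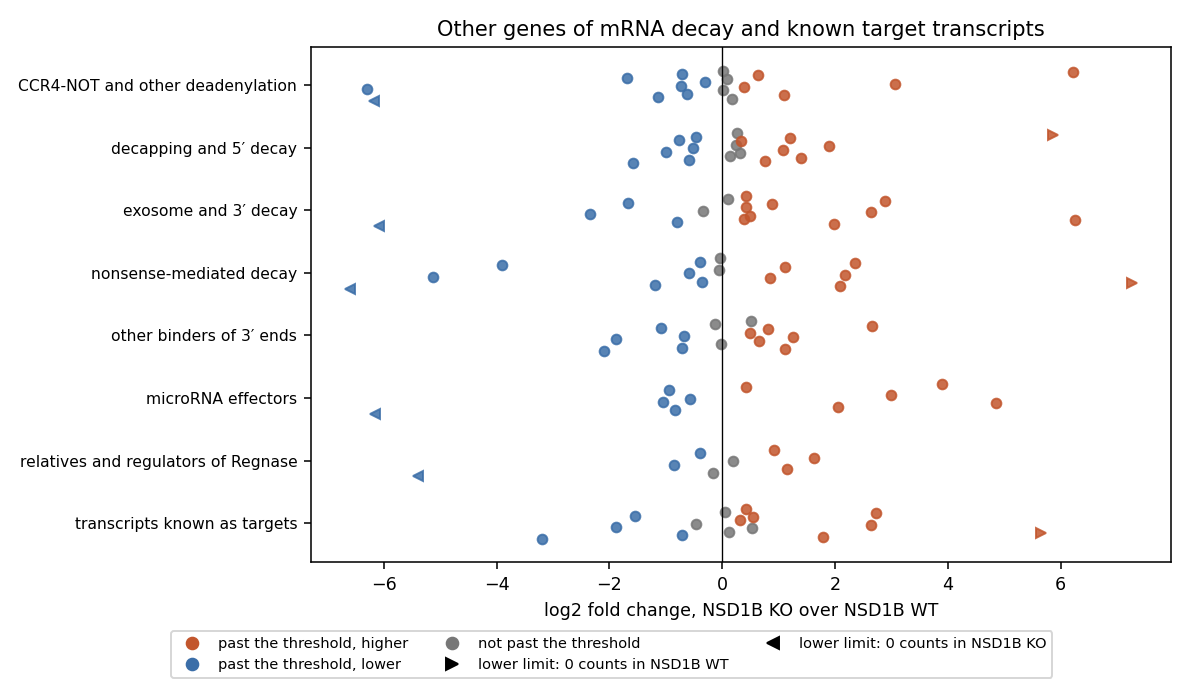
Log2 fold change, NSD1B KO over NSD1B WT, of each tested gene in 8 lists of decay components and known targets. Triangles mark genes without a count in 1 genotype, drawn at the limit that 3 counts over the group allow, and genes on both sides of 0 pass the threshold in every list.

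The relatives and regulators of Regnase-1 moved in both directions as well: of 8 tested, 3 rose, 3 fell and 2 did not pass, and the median of the list was 0.01 on the log2 scale. The share that passed was 75.0% beside 78.2% of all genes tested. Its paralog Zc3h12c fell with Zc3h12a, from 63 and 68 counts in NSD1B WT to none in NSD1B KO, at least 42.1-fold lower, while the paralog Zc3h12d, which had 97 and 105 counts in NSD1B WT and 329 and 274 in NSD1B KO, rose by 1.63 on the log2 scale. Malt1, the protease that cleaves Regnase-1 and Roquin after antigen receptor signalling, rose by 1.15. Bcl10, which acts with Malt1, had a log2 fold change of 0.19 and missed the fold threshold. It was at 0.27 without NSD1B KO replicate 2. With the trend in exon length and GC content removed it passed at 0.28, both without and with the replicate block. Mapkapk2, the kinase that inactivates tristetraprolin, had a log2 fold change of -0.40 (adjusted p 0.0250). This call was lost under 8 of 16 alternatives, among them without NSD1B WT replicate 1 (-0.34), NSD1B WT replicate 2 (-0.41) or NSD1B KO replicate 1 (-0.27), and the value was 0.05 with the trend in exon length and GC content removed. Ywhaz, a 14-3-3 protein that binds the phosphorylated form of tristetraprolin, had a log2 fold change of -0.17 and an adjusted p of 0.0580, and passed without NSD1B KO replicate 1 (-0.32).

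Transcripts that are known as targets of these binders were followed in a list of 25, of which 15 were tested, 7 rose, 4 fell and 4 did not pass, and the median of the list was 0.32 on the log2 scale. The share that passed was 73.3% beside 78.2% of all genes tested, with 46.7% higher beside 37.1% and 26.7% lower beside 41.1%. Tnf, Il6, Il10, Il12b, Icos, Ier3 and Cxcl2, the classical cytokine and costimulatory targets, had no count in any of the 4 libraries, so they gave no information on decay at this depth. Tnfaip3, which encodes the ubiquitin editor A20, had no count in NSD1B WT and 69 and 77 in NSD1B KO, at least 50.5-fold higher. Ctla4 rose by 2.73, Nfkbiz, a target of Regnase-1 and Roquin with 38 and 62 counts in NSD1B WT and 183 and 150 in NSD1B KO, by 1.79, and the cyclin gene Ccnd3 by 2.64. Other targets fell: Myc had 2027 and 1856 counts in NSD1B WT and 555 and 455 in NSD1B KO (log2 fold change -1.89), and Ccnd2 had 1909 and 1904 against 684 and 577 (-1.54). Exons of Ccnd2 share 372 nt with the antisense Gm43126, which had 526 and 605 counts in NSD1B WT and 19 and 21 in NSD1B KO. The NF-κB regulator Nfkbid fell by 0.72, or by 0.31 with the trend in exon length and GC content removed, and Rel and Bcl2 rose by 0.42 and 0.55.

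The direction of these targets was also set beside the letters in their 3′ UTRs. Of 24 target genes with a 3′ UTR, 17 held TATTTAT and 6 the stem-loop form. Myc, which fell, was not among the 24, since the transcript chosen gave no 3′ UTR to search. For the tested targets Nfkbiz, Nfkbid and Rel, 1 stem-loop each is shown with the loop in capitals, since Nfkbiz and Rel rose and Nfkbid fell although each held the form. Nfkbiz and Nfkbid held 2 matches each, of which 1 is shown.
Nfkbiz, chr16:55812614-55812628, minus strand: tgtttcTATgaaaca
Nfkbid, chr7:30428430-30428444, plus strand: tgtttcTGTgaaaca
Rel, chr11:23742028-23742042, minus strand: aatggcTATgccatt
The Nfkbiz and Nfkbid sequences shown share the same 6 bases on each side of the loop, and the other match of each gene does not. Of the 9 tested targets with TATTTAT, 4 rose, 1 fell and 4 did not pass, beside 43.5% higher and 39.1% lower among all tested genes whose 3′ UTR held it. Of the 5 without it, 3 rose and 2 fell, beside 38.3% higher and 42.4% lower among all tested genes whose 3′ UTR lacked it. These counts are small and only describe the list, and RNA half-lives were not measured.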

How the data were processed

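The authors sequenced 150 bp paired-end reads and mapped them to mm10 with Bowtie2, per their methods and the submitters' processing notes. They deposited 1 file of whole-number counts per library, which are neither normalized nor scaled by gene length. Cufflinks FPKM values were not used here, and for the counting program, its strand setting and its annotation the sources used here name none. Closing lines that name no gene (no feature 44.3% to 44.6%, ambiguous 2.21% to 2.41%, not unique 11.2% to 13.2%, each relative to the library's total in the file) were left out of library sizes and tests.

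Groups were taken from the labels. Counts were scaled by TMM (factors 1.03, 1.03, 0.952 and 0.995) and NSD1B KO was compared with NSD1B WT by the quasi-likelihood test of edgeR 4.0.16 in R 4.3.3, after filterByExpr (minimum count 10, minimum total 15), with Benjamini-Hochberg adjustment over the 11657 genes tested. SE is the log2 fold change divided by the square root of F. The common dispersion was 0.0054. A gene passed with a fold change over 1.2 and an adjusted p under 0.05, the study's limits with p taken as adjusted. With 2 libraries against 2 an exact permutation test cannot go below 0.333, so none was made. For genes at 0 in a genotype the limit was 3 counts over both libraries, for counting error only. Positions, exon lengths and 3′ UTRs were taken from GENCODE M21, which matched 99.5% of the identifiers. The replicates of a genotype differed by more than sampling noise (mean chi-square 2.92 in NSD1B WT and 3.78 in NSD1B KO, where 1 is the value for sampling alone).

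The decay genes, the lists and the tests were chosen with earlier results of these data known, so no set test and no p adjusted over a list is given. From each list the text names the 2 genes with the highest mean CPM, the 2 largest increases and 2 largest decreases past the threshold among genes of mean log2 CPM 3 or more, and genes at 0 in a genotype with at least 50 counts in the other. Cnot2, Cnot3, Cnot7, Cnot8, Cnot11, Nfkbiz, Nfkbid, Rel and Bcl2 were added with their values known. Some genes that the rule names are not reported here. Alternatives tried were other scalings, DESeq2 1.42.0, limma-voom, other filters and thresholds, each library left out, the replicate number as a block, a fit without the trend in exon length and GC content, and immunoglobulin genes left out. The fitting procedure was tested on simulated data.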

Additional observations from a re-analysis of the deposited data

How the results depend on the processing

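Leaving out each library in turn, 3 other scalings, the DESeq2 Wald test, limma-voom, 2 other filters, stricter thresholds and the omission of immunoglobulin genes left the direction and call of Zfp36l1, Zfp36l2, Zc3h12a, Rc3h1, Elavl1, Cnot1, Xrn1 and Dcp2 as given, except that Zc3h12a was not tested where at least 1 CPM in all 4 libraries was required. Rc3h2 never passed the threshold and its log2 fold change changed sign, to 0.068 without NSD1B WT replicate 1 and 0.045 without NSD1B KO replicate 2, within a range of -0.15 to 0.068 when 1 library was left out and down to -0.18 with the trend in exon length and GC content removed. Zfp36 passed the threshold when that trend was removed, at 0.52 (adjusted p 2.11e-05) without and 0.52 (adjusted p 5.82e-07) with the replicate block. Its removal also moved the median of all genes tested from -0.10 to 0.10. The libraries share only a replicate number. Over genes, the deviations of the 2 libraries numbered 1 from their group means correlated by 0.0645. With 2 libraries per genotype the other pair mirrors this one. With the replicate block alone, 4254 genes were higher and 4706 lower, Zfp36 was at 0.13 and no call of a decay gene differed. With at least 1 CPM in all 4 libraries fewer genes were tested, 2855 were higher and 2991 lower, and 4 genes of nonsense-mediated decay were lower and 3 microRNA effectors higher. At an adjusted p below 1e-05 and a log2 fold change above 0.5, 5 exosome genes were higher and 2 microRNA effectors lower. Of 55 other genes named with a fold change, 46 kept their call under every alternative in which they were tested, and 5 lost it only at these stricter limits. Mapkapk2 lost its call under 8 of 16 alternatives, and without the trend it was at 0.053 and, with the replicate block, 0.051. Cnot3, never past the threshold, was at -0.062 with library size alone, -0.021 with upper quartile scaling, -0.022 with at least 1 CPM in all libraries and from -0.080 to 0.11 with 1 library left out. With the trend removed Cnot3 was at 0.37, both without and with the replicate block. Cnot11, never past the threshold either, was at -0.070 with library size alone, -0.029 with upper quartile scaling and -0.031 with at least 1 CPM in all libraries. It was at -0.013 in limma-voom, at -0.0088 with the replicate block and from -0.44 to 0.35 with 1 library left out. With the trend removed Cnot11 was at 0.33 without and 0.31 with the replicate block.

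Zc3h12a, with 4 and 9 counts in NSD1B KO, is the decay gene that depth limits most. Targets at 0 were not detectable at this depth, and with 2 libraries for each genotype of unknown origin, genotype and any difference in sorting or mice cannot be told apart.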

Other observations

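Among the protein-coding genes tested that had a 3′ UTR, 2549 held TATTTAT, of which 43.5% were higher in NSD1B KO and 39.1% lower. Of the 6632 genes without it, 38.3% were higher and 42.4% lower. The element is commoner in long 3′ UTRs, and the length of the 3′ UTR and the level of the gene were not matched between these sets, so the values are given as a description with no test.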
